A study of Mus musculus with 6 samples.

Results

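The 10 genes for matricellular proteins described here, chosen by name from a table of 32285 genes, were followed across the cell types of mouse skin after epicutaneous exposure to OVA: Tnc, Tnn, Postn, Spp1, Thbs1, Thbs2, Sparc, Ccn1, Ccn2 and Ccn4 (10 of 10 found). Skin of Balb/c mice was digested with enzymes 2 days after the end of 10 days of sensitization, and single-cell libraries were made with the 10x Genomics 3' kit, version 2. In this assay each captured transcript carries a unique molecular identifier (UMI), and UMIs are counted. There were 3 libraries with the treatment label control (EC-SAL) and 3 labelled OVA-sensitized (EC-OVA), so n = 3 per group throughout. The labels describe the tissue of all 6 libraries, controls included, as sensitized skin, and give their cell type as CD4, yet the cells were mostly keratinocytes, fibroblasts and other skin cells. Whether each library came from its own animals is not stated; the p-values below therefore reflect library-to-library spread alone, and that spread may be technical.

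Matricellular proteins are secreted into the extracellular matrix but act mainly as signals and organisers, not as load-bearing fibres. They bind integrins, growth factors and collagens, are scarce in most resting adult tissues, and are made again in development, wounds, scars and inflamed tissue. In skin, tenascin-C and periostin are known for their deposition in the dermis of wounds and of allergic inflammation.

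Of 38206 barcodes, 24432 cells were kept, 3405 to 4994 per library, with a median of 4528 to 5193 UMIs per cell. Cells were clustered without the 10 genes, and clusters were named from marker lists. The classes that matter most here were fibroblast-like (5227 cells in 4 clusters), keratinocyte-like (7757), pericyte and smooth muscle-like (786) and dermal papilla-like (599) cells. Keratinocyte-like cells were 39.6 ± 0.313% of control cells and 22.1 ± 1.36% of cells after OVA, and fibroblast-like cells 17.8 ± 0.492% and 25.8 ± 1.45% (mean ± SD). Among the kept cells, 339 barcode sequences occurred in 2 libraries and 3 occurred in 3 libraries. Keratin RNA moved with the groups in cells that are not keratinocytes: 6 keratinocyte genes summed to 752.5 to 994 counts per 1000000 UMIs (CPM) in control fibroblast-like cells and to 319 to 349.6 CPM after OVA. Levels below are CPM of the UMIs summed per cell class and library, and differences are log2 fold changes, EC-OVA over EC-SAL, ± SE.

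All coordinates are mm10, and each gene is protein coding in GENCODE M21. The tenascins are Tnc (ENSMUSG00000028364, chromosome 4, 63959785 to 64047015) and Tnn, which encodes tenascin-W (ENSMUSG00000026725, chromosome 1, 160085029 to 160153580). Postn encodes periostin (ENSMUSG00000027750, chromosome 3, 54361109 to 54391037) and Spp1 osteopontin (ENSMUSG00000029304, chromosome 5, 104435118 to 104441050). The thrombospondins are Thbs1 (ENSMUSG00000040152, chromosome 2, 118111876 to 118127133) and Thbs2 (ENSMUSG00000023885, chromosome 17, 14665500 to 14694235), and Sparc encodes osteonectin (ENSMUSG00000018593, chromosome 11, 55394500 to 55423183). The CCN genes are Ccn1, also called Cyr61 (ENSMUSG00000028195, chromosome 3, 145646976 to 145649981), Ccn2, also called Ctgf (ENSMUSG00000019997, chromosome 10, 24595442 to 24598683), and Ccn4, also called Wisp1 (ENSMUSG00000005124, chromosome 15, 66891320 to 66923201). Tnc, Thbs1 and Ccn2 each overlap a non-member gene on the opposite strand (8030451A03Rik, Gm29233 and Gm15270), and how the counting treated strand is not given in the sources used here.

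Promoter windows from RefSeq on GRCm38.p6 were found for 7 of the 10 genes; Thbs1, Ccn2 and Ccn4 had no entry. The 250 bases upstream of the start are shown for 3 genes that rose in fibroblast-like cells (Tnc, Tnn and Postn) and for Ccn1, which did not pass the test there, so that the windows can be read beside the values. Capitals mark matches to the motifs searched on both strands: TATAAA, the TEAD motif CATTCC, the AP-1 motif TGANTCA, the palindromic SMAD element GTCTAGAC, the STAT6 motif (TTC and GAA with 4 bases between) and the CArG box of serum response factor.
Tnc, chr4:64047016-64047265, minus strand: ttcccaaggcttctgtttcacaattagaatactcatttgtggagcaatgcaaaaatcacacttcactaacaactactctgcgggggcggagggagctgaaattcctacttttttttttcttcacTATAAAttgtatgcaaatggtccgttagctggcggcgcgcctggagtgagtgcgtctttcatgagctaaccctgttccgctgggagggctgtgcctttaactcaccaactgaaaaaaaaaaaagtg
Tnn, chr1:160153576-160153825, minus strand: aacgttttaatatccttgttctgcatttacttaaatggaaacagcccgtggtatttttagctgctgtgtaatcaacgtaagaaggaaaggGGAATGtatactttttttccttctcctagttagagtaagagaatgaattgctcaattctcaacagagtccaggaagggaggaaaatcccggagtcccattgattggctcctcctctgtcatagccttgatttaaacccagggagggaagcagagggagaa
Postn, chr3:54360857-54361106, plus strand: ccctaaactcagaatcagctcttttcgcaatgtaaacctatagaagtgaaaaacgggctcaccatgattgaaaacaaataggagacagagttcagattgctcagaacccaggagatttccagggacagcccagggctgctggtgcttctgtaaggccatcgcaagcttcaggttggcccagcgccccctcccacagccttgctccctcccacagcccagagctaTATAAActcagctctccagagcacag
Ccn1, chr3:145649986-145650235, minus strand: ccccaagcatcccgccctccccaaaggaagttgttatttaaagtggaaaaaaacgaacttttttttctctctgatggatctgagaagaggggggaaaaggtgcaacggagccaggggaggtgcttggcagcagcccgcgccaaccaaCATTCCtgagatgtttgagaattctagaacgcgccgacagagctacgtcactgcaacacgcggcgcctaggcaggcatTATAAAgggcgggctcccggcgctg

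TATAAA was found in 5 of the 7 windows, against 12.4% of all 32851 windows of the table. It lay 26 to 21 bases upstream of the start in Postn and 25 to 20 bases upstream in Ccn1, and farther upstream in Tnc (126 to 121 bases), Thbs2 (126 to 121 bases, on the other strand) and Spp1 (211 to 206 bases). The TEAD motif was found in Ccn1 (103 to 98 bases upstream) and, on the other strand, in Tnn (160 to 155 bases upstream), against 12.6% of all windows. None of the 7 windows held the letters of the AP-1 motif (6.75% of all windows), the SMAD element (0.167%), the STAT6 motif (5.85%) or the CArG box (1.47%), and the Sparc window held none of the motifs. A CArG box can hold TATAAA within it. These matches describe letters only.

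Fibroblast-like cells held most of the UMIs of 6 of the genes in both groups. Their share in controls and after OVA was 73.2 ± 2.13% and 88.9 ± 1.78% for Tnc, 82.8 ± 9.03% and 96.3 ± 0.633% for Tnn, 86.7 ± 0.898% and 92.6 ± 0.558% for Postn (mean ± SD). It was 82.1 ± 0.885% and 91.8 ± 0.257% for Thbs2, 64.2 ± 6.14% and 81.75 ± 0.592% for Ccn4 and 60.9 ± 1.15% and 66.75 ± 0.622% for Sparc. In all 6 genes each OVA library had a higher fibroblast-like share than each control library, at p = 0.1, the smallest a two-sided exact permutation test of 3 against 3 can give. These shares move with the number of cells of each class as well as with the level per cell. Fibroblast-like cells were 17.8 ± 0.492% of control cells and 25.8 ± 1.45% of cells after OVA. The share of all genes whose groups do not overlap is not given, so non-overlap here and below only describes the libraries.

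The other 4 genes had other main sources. Thbs1, the thrombospondin that activates latent TGF-beta, came mainly from keratinocyte-like cells, which held 71.7 ± 0.228% of its UMIs in controls and 49.95 ± 3.50% after OVA, while the fibroblast-like share was 7.92 ± 0.616% and 20.6 ± 3.09%. Ccn1, an immediate-early gene for an integrin ligand, was spread over keratinocyte-like (40.7 ± 1.07% and 28.0 ± 4.52%), fibroblast-like (21.6 ± 0.804% and 31.3 ± 2.88%) and dermal papilla-like cells (13.1 ± 1.37% and 13.7 ± 1.94%). Ccn2, the CCN protein best known from fibrosis, came from tendon and perichondrial-like cells (55.3 ± 1.19% and 44.3 ± 2.89%) and chondrocyte-like cells (30.3 ± 1.26% and 43.8 ± 3.90%), and only 7.44 ± 0.441% and 7.54 ± 1.46% of its UMIs were in fibroblast-like cells. Spp1, an adhesion protein also made by leukocytes, was split between tendon and perichondrial-like (29.8 ± 7.18% and 27.0 ± 1.19%), Schwann-like (29.2 ± 3.45% and 10.9 ± 2.84%) and chondrocyte-like cells (14.5 ± 4.51% and 17.0 ± 4.05%). The exact permutation p of these source shares was 0.1 where the groups did not overlap, and 0.5 for Spp1 in tendon and perichondrial-like cells, 0.6 for Spp1 in chondrocyte-like cells, 0.8 for Ccn1 in dermal papilla-like cells and 0.9 for Ccn2 in fibroblast-like cells.

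**Figure D1:**
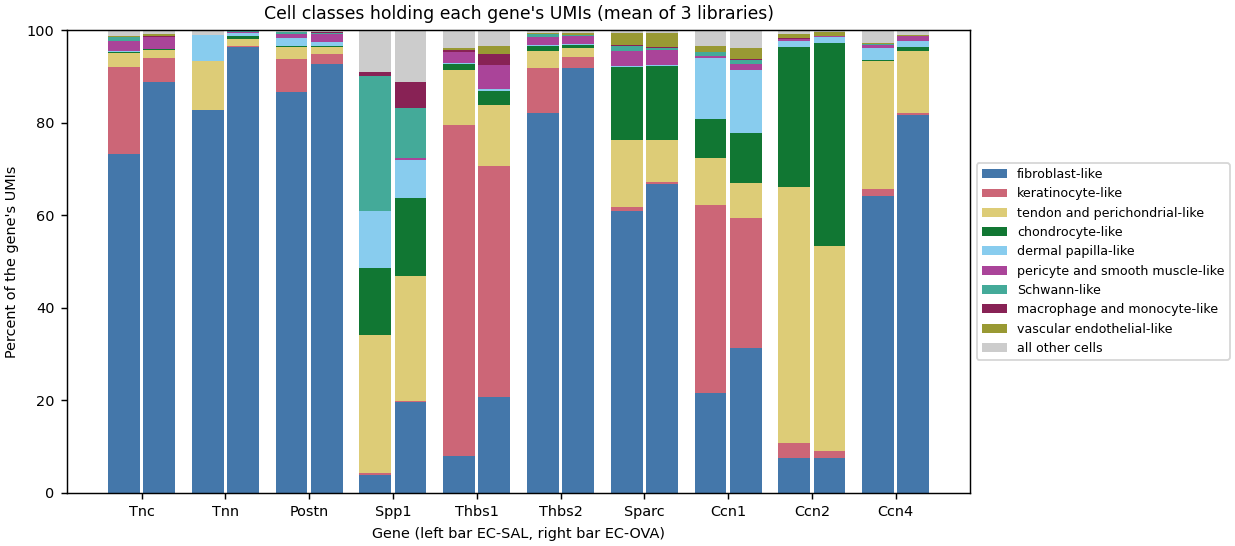
Share of each gene's UMIs (y axis, percent) held by each cell class, for EC-SAL (left bar) and EC-OVA (right bar), as the mean of 3 libraries; colours are cell classes. The fibroblast-like share was above 60% in both groups for Tnc, Tnn, Postn, Thbs2, Sparc and Ccn4, and Thbs1, Ccn1, Ccn2 and Spp1 had other main sources.

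Levels per class sharpened this picture for single genes. Ccn1 was highest in dermal papilla-like cells, at 4345, 4809 and 4855 CPM in control libraries 1 to 3 and 4518, 3205 and 4094 CPM after OVA, above every library of every other tested class. Among keratinocyte-like clusters, Ccn1 and Thbs1 were highest in the cluster led by Akr1c18, Gsta3 and Snai3, with 1144 to 1287 CPM of Ccn1 and 927 to 999 CPM of Thbs1 in controls. Of the Tnc UMIs in keratinocyte-like clusters, most (462 in controls and 444 after OVA) lay in the cluster led by Gnmt, Gjb2 and Slc7a8, which also had Lhx2 and Lgr5 among its leading genes, at 118.5 to 124 CPM in controls and 122 to 168 CPM after OVA. Spp1 was highest among tested classes in Schwann-like cells, with 947.9 to 1213 CPM in controls and 616 to 1018 CPM after OVA. Ccn4, a Wnt-induced CCN protein, was highest in the tendon and perichondrial-like cluster led by Coch, Crabp1 and Kera (263 to 402 CPM in controls, 322 to 417 CPM after OVA). Crabp1 is on the dermal papilla marker list used here, and whether these cells are dermal fibroblasts was not tested. Their UMIs count toward the tendon and perichondrial-like class, which held 27.7 ± 7.57% of Ccn4 UMIs in controls and 13.5 ± 0.910% after OVA. Sparc, a collagen-binding protein, reached 17720 to 19410 CPM in control fibroblast-like cells, 15420 to 19350 CPM in chondrocyte-like and 13480 to 14660 CPM in tendon and perichondrial-like cells, and the fibroblast-like and chondrocyte-like ranges overlapped.

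**Figure D2:**
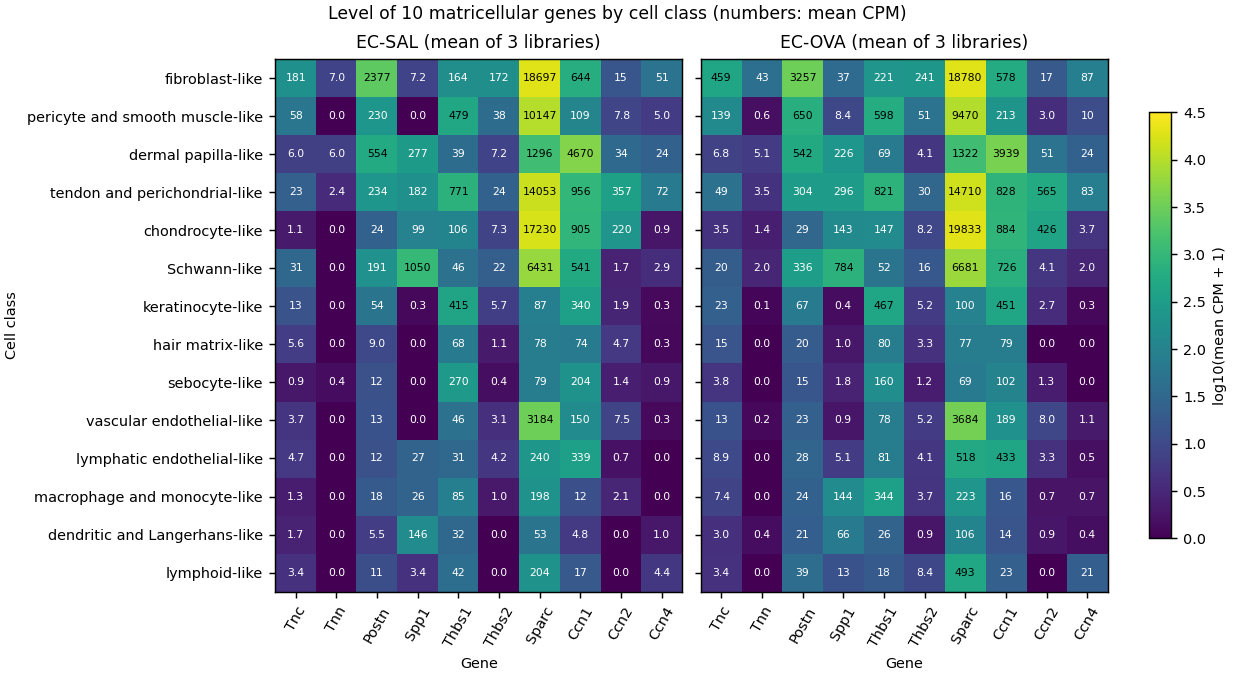
Mean level of the 10 genes (columns; number and colour, CPM, colour on a log10(CPM + 1) scale) in 14 cell classes (rows) for EC-SAL (left) and EC-OVA (right). In EC-SAL Tnn averaged 6.97 CPM in fibroblast-like and 6.0 CPM in dermal papilla-like cells, and in EC-OVA 42.8 and 5.10 CPM; Sparc was 9470 CPM or more on average in fibroblast-like, pericyte and smooth muscle-like, tendon and perichondrial-like and chondrocyte-like cells.

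In fibroblast-like cells 7 of the 10 genes rose after OVA and none fell, where 4.87% of the 11249 genes tested rose (edgeR's quasi-likelihood test, Benjamini-Hochberg adjusted p under 0.05). The median difference of the 10 genes was 0.48 on the log2 scale, against 0.00 over all genes tested. Tnc stood at 175, 190.3 and 179 CPM in controls and at 458, 492 and 427 CPM after OVA, a difference of 1.35 ± 0.08 (adjusted p = 1.89e-06). Tnn, a tenascin of bone and of stroma around tumours, stood at 9.07, 5.88 and 5.95 CPM in controls and at 48.6, 40.1 and 39.8 CPM after OVA (2.602 ± 0.15, adjusted p = 1.35e-06). The groups did not overlap for either tenascin.

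Postn, which binds collagen and promotes its crosslinking and is induced by IL-13, was already abundant, at 2289, 2350 and 2491 CPM in controls, and stood at 3354, 3100 and 3318 CPM after OVA (0.46 ± 0.06, adjusted p = 0.000611). Thbs2, a thrombospondin that limits vessel growth and affects collagen fibril assembly, went from 164 to 177 CPM in controls to 227 to 259 CPM after OVA (0.49 ± 0.07, adjusted p = 0.000651). Thbs1 went from 156 to 175 CPM to 200.1 to 241 CPM (0.44 ± 0.08, adjusted p = 0.00406), and Ccn4 from 44.2 to 54.9 CPM to 80.2 to 91.0 CPM (0.77 ± 0.08, adjusted p = 0.00012). In each of these 4 genes every OVA library was above every control library.

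Spp1 also rose in the sum of fibroblast-like cells, from 5.95 to 9.51 CPM to 26.9 to 43.3 CPM (2.34 ± 0.23, adjusted p = 5.12e-05), but few cells carried it. A Spp1 UMI was found in 41 of 2397 control cells (1.71%, exact 95% interval 1.23 to 2.31%) and 101 of 2830 cells after OVA (3.57%, 2.92 to 4.32%), and 10 cells held 71.5% of the 702 UMIs after OVA, one of them 114 UMIs. Of the Spp1-bearing cells after OVA, 22.8% also had a UMI of the listed leukocyte genes Ptprc, Lyz2, Tyrobp or Cd74, against 12.9% of the other fibroblast-like cells. In controls the shares were 9.756% (4 of 41 cells) and 9.762%. Cells were not matched for depth in these shares. With doublets kept and the cells clustered again, the difference was 1.48 with an adjusted p of 0.0919. The 7 leukocyte genes of the list summed to 28.95 to 34.5 CPM in control fibroblast-like cells and 46.9 to 65.3 CPM after OVA. Of the 4 tested, H2-Aa, Cd74 and Fcer1g were called higher. Whether leukocytes or the fibroblast-like cells themselves made this RNA was not tested, nor was its part in the Spp1 difference.

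Sparc, Ccn1 and Ccn2 did not pass the test in fibroblast-like cells. Sparc stood at 19410, 17720 and 18960 CPM in controls and 19470, 18110 and 18760 CPM after OVA (0.01 ± 0.05, adjusted p = 0.921), with overlapping groups. Ccn1 was 632 to 656 CPM in controls and 502 to 628 CPM after OVA (-0.15 ± 0.08, adjusted p = 0.271), ranges that did not overlap. Ccn2 was low, with 11.7, 19.7 and 14.1 CPM in controls and 16.5, 7.76 and 27.1 CPM after OVA (0.17 ± 0.35, adjusted p = 0.831), and its OVA libraries lay on both sides of the controls. The same library order for Ccn2 was seen in other classes: OVA library 3 was the highest of the OVA libraries in tendon and perichondrial-like (869.5 CPM), chondrocyte-like (675 CPM) and dermal papilla-like cells (99.6 CPM), and control library 2 the highest control library in each of them (455, 283 and 46.3 CPM).

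**Figure D3:**
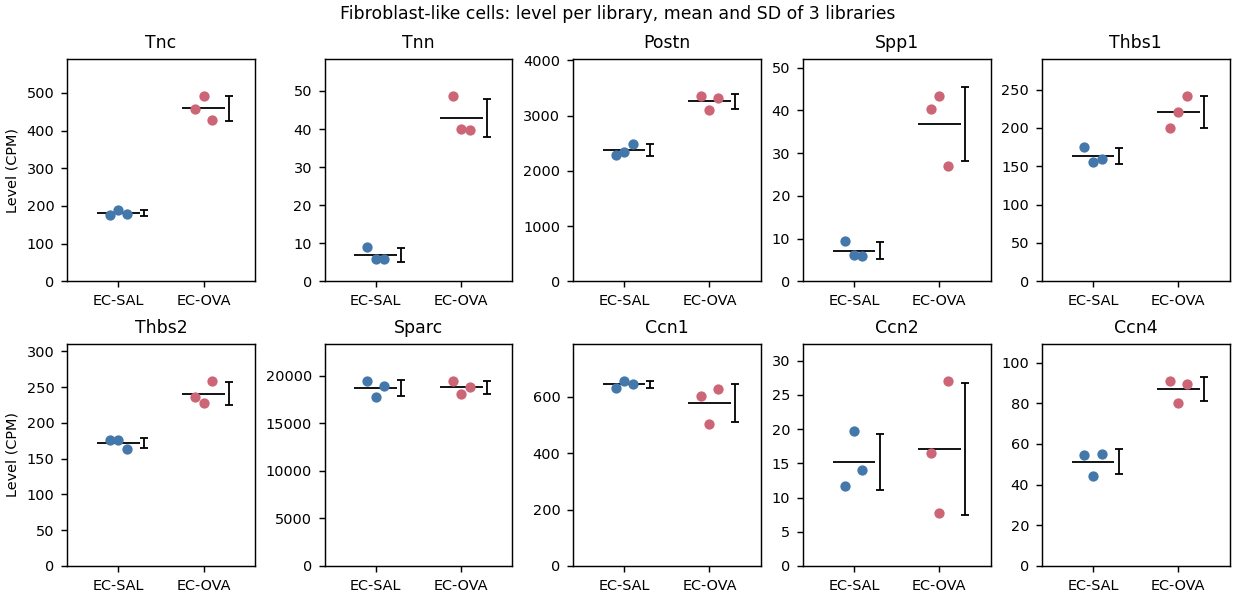
Level of each gene (y axis, CPM, from 0) in fibroblast-like cells for each of the 3 EC-SAL and 3 EC-OVA libraries (points), with the mean (line) and SD (bar at the side). The groups do not overlap for Tnc, Tnn, Postn, Spp1, Thbs1, Thbs2 and Ccn4, and they overlap for Sparc and Ccn2; for Ccn1 the highest level after OVA, 628 CPM, is just below the lowest in controls, 632 CPM.

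The share of cells with a UMI moved the same way. A Tnc UMI was found in 26.1% of control fibroblast-like cells and 44.5% after OVA, at a median of 4709 and 6217 UMIs per cell. After thinning each cell to 1000 UMIs the shares were 12.2% (exact 95% interval 10.9 to 13.6%, 2282 cells) and 23.9% (22.3 to 25.6%, 2687 cells), with 115 control and 143 OVA cells left out as too shallow. Intervals of cell shares, here and elsewhere, pool the cells of 3 libraries. They cover counting error only, not the spread between libraries. In lymphoid-like cells, which should lack Tnc, at a median of 2054.5 and 1919 UMIs, the thinned share was 0.694% and 0.4405%. Tnn was found in 2.75% and 10.0% of fibroblast-like cells, and in 0.394% and 2.72% after thinning, against 0 of 144 and 0 of 227 thinned lymphoid-like cells, which allows up to 2.53% and 1.61% (exact 95% intervals).

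The fibroblast-like cells fell into 4 clusters, called here by number. Cluster 1 (2027 cells) was led by Ptx3, Dpt and C3, cluster 2 (1864 cells) by Wfdc12, Cpz and Ccn5, cluster 8 (1163 cells) by Lrrc15, Mmp11 and Ccn4, and cluster 24 (173 cells) by Krt19, Apod and Sbspon. Although the 10 genes took no part in the clustering, Tnc was among the 10 leading genes of cluster 1, Thbs2 of cluster 2 and Ccn4 of cluster 8. The name of cluster 8 depends on the resolution: its cells were grouped with tendon-like cells at resolution 0.6 and with papilla-like cells at 1.5. Cluster 1 made up 35.3 ± 1.68% of fibroblast-like cells in controls and 41.6 ± 0.918% after OVA, cluster 2 39.05 ± 1.19% and 32.9 ± 1.70%, cluster 8 21.7 ± 2.21% and 22.6 ± 1.11%, and cluster 24 3.93 ± 1.15% and 2.86 ± 0.0386%.

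In cluster 1, 7 of the 10 genes rose, where 5.05% of 9034 genes tested rose, and Ccn1 fell, where 4.11% of genes fell. Tnn stood at 1.95, 0.680 and 1.66 CPM in controls, from 6 UMIs in all, and at 50.2, 45.4 and 48.5 CPM after OVA (5.001 ± 0.2745, adjusted p = 9.35e-08). Ccn4 stood at 6.50, 4.76 and 8.32 CPM in controls and at 69.5, 56.6 and 73.7 CPM after OVA (3.34 ± 0.205, adjusted p = 2.73e-07). Neither gene's groups came near each other. Tnc went from 261 to 329.5 CPM to 645 to 756 CPM (1.24 ± 0.11, adjusted p = 9.06e-06), Postn from 2897 to 3178 CPM to 3821 to 4518 CPM (0.44 ± 0.09, adjusted p = 0.004735), Thbs1 from 256 to 279 CPM to 327 to 379 CPM (0.41 ± 0.10, adjusted p = 0.0139) and Thbs2 from 130.1 to 154 CPM to 176 to 206 CPM (0.41 ± 0.11, adjusted p = 0.02735). Ccn1 went the other way, from 605 to 663 CPM to 439 to 529 CPM (-0.39 ± 0.09, adjusted p = 0.00991).

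The Thbs1, Thbs2 and Ccn1 calls in cluster 1 depended on single libraries, and the Thbs2 call also on the tool (adjusted p = 0.0994 with DESeq2). Without control library 1 the adjusted p was 0.0601 for Thbs1 and 0.1455 for Thbs2, and without control library 2 it was 0.0769 for Thbs1, 0.0753 for Thbs2 and 0.0589 for Ccn1. Without OVA library 2 or 3 it was 0.0656 and 0.0748 for Thbs2. Spp1 in cluster 1 went from 3 UMIs in all controls to 321 UMIs after OVA, a ratio of 56.5 (exact 95% interval of counting error, 19.15 to 275) and a log2 difference of 5.70 ± 0.75 (adjusted p = 0.000212). It rested on 25 cells, of which 10 held 91.6% of the UMIs and 1 cell, in OVA library 1, held 114. Of the 25 cells, 36.0% had a UMI of the same listed leukocyte genes, against 14.5% of the other cluster 1 cells after OVA. In cluster 8 these shares were 19.05% and 10.5% in controls and 19.3% and 10.65% after OVA.

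In cluster 2, 5 of 9 genes tested rose, where 1.23% of 8704 genes rose. Tnn went from 16.2, 10.5 and 6.90 CPM to 64.2, 42.6 and 31.6 CPM (2.00 ± 0.29, adjusted p = 0.000999), and Tnc from 168 to 207 CPM to 362 to 481 CPM (1.24 ± 0.12, adjusted p = 2.37e-05). Ccn4 went from 19.8 to 38.7 CPM to 50.8 to 74.8 CPM (1.09 ± 0.19, adjusted p = 0.00518), Thbs2 from 242 to 283 CPM to 369.7 to 445 CPM (0.67 ± 0.09, adjusted p = 0.000776) and Postn from 2297 to 2562 CPM to 3078 to 3493 CPM (0.43 ± 0.08, adjusted p = 0.00779). The groups did not overlap for any of these 5 genes. The Postn call was lost without control library 1 (adjusted p = 0.0642) and without OVA library 1 (0.0533). Spp1 was left out of the test, with 5 UMIs in controls and 11 after OVA.

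In cluster 8, 2 of 10 genes rose, where 0.569% of 8431 genes rose, and both were tenascins. Tnc went from 27.9, 26.8 and 21.4 CPM to 82.8, 68.6 and 76.7 CPM (1.59 ± 0.16, adjusted p = 0.000164) and Tnn from 8.45, 7.0 and 10.7 CPM to 27.4, 30.1 and 39.0 CPM (1.89 ± 0.27, adjusted p = 0.00168). Ccn4, high in this cluster before OVA, did not pass (144, 159 and 163 CPM against 156, 153 and 171 CPM; 0.06 ± 0.11, adjusted p = 0.904). Spp1 had 30.4, 14.0 and 6.40 CPM in controls and 44.9, 134 and 27.3 CPM after OVA and did not pass (1.99 ± 0.58, adjusted p = 0.1745); without OVA library 1 its adjusted p was 0.0341, and with the replicate number as a block it was 0.000339. In cluster 24, 0 of 5 genes tested passed, where 0.344% of 1163 genes passed in either direction, and Tnn had 0 UMIs in both groups. With the replicate number as a block Postn and Ccn1 both passed there (adjusted p = 0.0304 for each; log2 differences 1.87 and -1.15), and Ccn1 passed without control library 2 (0.0449).

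**Figure D4:**
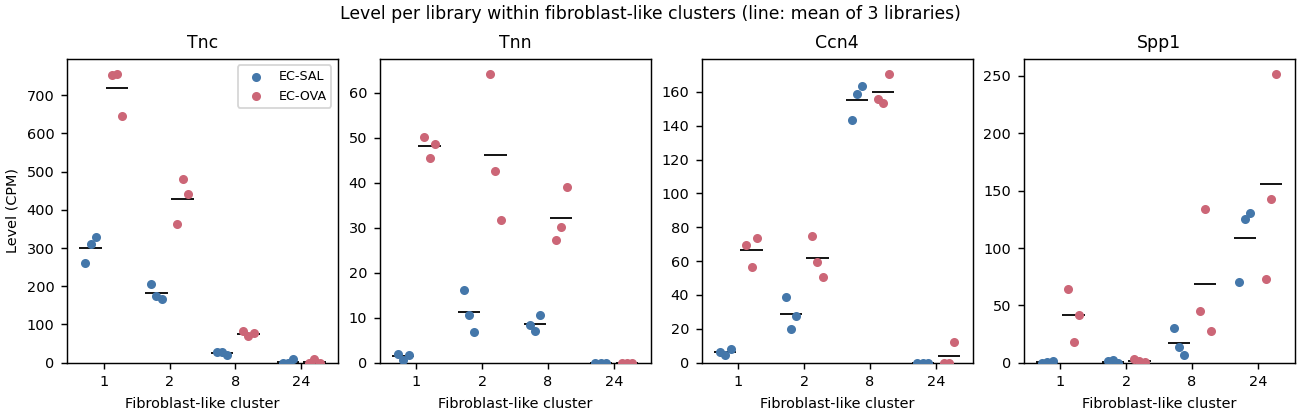
Level (y axis, CPM, from 0) of Tnc, Tnn, Ccn4 and Spp1 in the 4 fibroblast-like clusters (x axis) for each EC-SAL (blue) and EC-OVA (red) library, with the mean of 3 libraries as a line. In cluster 1 Tnn and Ccn4 went from under 10 CPM to 45.4 to 50.2 and 56.6 to 73.7 CPM, while in cluster 8 Ccn4 was at 144 to 171 CPM in both groups.

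The OVA effect itself differed between clusters for some genes, as tested by an interaction of treatment with cluster over sums of each cluster and of the remaining fibroblast-like cells in the 6 libraries. The effect in cluster 1 exceeded that in the other fibroblast-like cells by 2.90 ± 0.23 for Ccn4 (adjusted p = 1.26e-09) and by 3.06 ± 0.45 for Tnn (adjusted p = 6.6e-05), and it was lower for Ccn1 (-0.37 ± 0.08, adjusted p = 0.00879). These were 3 of the 10 genes, where 1.81% of all genes tested differed. For Tnc, Postn, Thbs1, Thbs2, Sparc, Ccn2 and Spp1 no difference passed for cluster 1. In cluster 8 the effect was lower than in the rest for Ccn4 (-1.75 ± 0.19, adjusted p = 1.09e-05) and Thbs1 (-0.72 ± 0.15, adjusted p = 0.01825), 2 of the 10 genes where 0.963% of genes differed. In cluster 2 Ccn1 differed (0.35 ± 0.08, adjusted p = 0.0245; 0.785% of genes), and in cluster 24 Postn (1.47 ± 0.38, adjusted p = 0.045), Ccn1 (-0.97 ± 0.24, adjusted p = 0.0223) and Spp1 (-2.26 ± 0.55, adjusted p = 0.0223; 0.222% of genes). The cluster 24 values rest on few cells. Postn had 18 UMIs in 13 control cells and 67 UMIs in 21 cells after OVA, 25 of them in 1 cell. For Ccn1, 10 cells held 70.0% of its UMIs in controls and 82.8% after OVA.

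Tnn was found in few cells, and in clusters 1 and 2 these cells had more Ccn4 and Tnc than their neighbours. After OVA 99 of 1180 cluster 1 cells had a Tnn UMI, 10 of them holding 30.4% of its UMIs. Summed Ccn4 in these cells was 230.3, 193 and 202 CPM in OVA libraries 1 to 3, against 29.8, 30.8 and 45.8 CPM in the cluster's other cells. Tnc was 1298, 1162 and 1106 CPM against 617, 680 and 545 CPM, and Ccn1 was lower, at 189, 156.5 and 196 CPM against 588, 492 and 601 CPM. Postn (3425, 3469 and 5170 CPM against 4277, 3887 and 4376 CPM) was lower in these cells in OVA libraries 1 and 2 and higher in library 3. The Tnn-bearing cells of cluster 1 had a median of 13942 UMIs and the others 5670. In cluster 2, with 38, 40 and 42 Tnn-bearing cells in the OVA libraries, Ccn4 was 178, 112 and 74.9 CPM against 54.3, 50.2 and 46.0 CPM. There Tnc was 554, 565 and 522 CPM against 324, 466 and 427 CPM. Ccn1 was lower in these cells (239, 183 and 320 CPM against 507, 431.5 and 456 CPM), and Postn was higher (4496, 3335 and 3348 CPM against 3294, 3146 and 3024 CPM). In cluster 8, with 19, 23 and 22 Tnn-bearing cells in the OVA libraries, Tnc was again higher in them (184, 205 and 123 CPM against 67.2, 43.45 and 67.9 CPM). Ccn4 was 163, 155 and 222 CPM against 154.6, 153 and 161 CPM, close in libraries 1 and 2 and higher in library 3. The comparison has no test, and since Tnn itself chose them these values are a description.

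In pericyte and smooth muscle-like cells, the contractile cells around vessels, 3 of 6 genes tested rose and none fell, where 1.52% of 5078 genes rose. Postn went from 203, 230.4 and 257 CPM to 608, 613 and 729 CPM (1.46 ± 0.13, adjusted p = 2.24e-06), Tnc from 68.3, 43.4 and 61.7 CPM to 127, 139.6 and 151 CPM (1.22 ± 0.20, adjusted p = 0.00114) and Ccn1 from 122, 100.3 and 103 CPM to 232, 224 and 181 CPM (0.93 ± 0.16, adjusted p = 0.00169). The groups did not overlap for any of them. Sparc (-0.13 ± 0.08, adjusted p = 0.478), Thbs1 (0.28 ± 0.16, adjusted p = 0.442) and Thbs2 (0.38 ± 0.28, adjusted p = 0.562) did not pass. Spp1 had 0 UMIs in controls and 16 after OVA, at least 3.55-fold higher against 3 counts over the group, with 21.7, 1.66 and 1.89 CPM in the OVA libraries, the highest in library 1.

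Fibroblast genes moved in the same cells: 5 of them, Col1a1, Col1a2, Col3a1, Dcn and Lum, summed to 2498 to 2875 CPM in control pericyte and smooth muscle-like cells and 3856 to 4550 CPM after OVA. Of the 5, Col1a1, Col1a2 and Col3a1 rose, and Dcn and Lum did not pass. Whether the pericyte and smooth muscle-like cells made this collagen RNA themselves was not tested. The median depth also rose, from 2784 to 4134 UMIs per cell. Their part in the Postn, Tnc and Ccn1 differences was not tested. The Postn effect was larger in pericyte and smooth muscle-like than in fibroblast-like cells (difference -1.01 ± 0.12, fibroblast-like minus pericyte and smooth muscle-like, adjusted p = 1.69e-07), and so was that of Ccn1 (-1.10 ± 0.17, adjusted p = 2.61e-05); 1.1% of 10516 genes differed. For Tnc no difference between the 2 classes passed (0.13 ± 0.22, adjusted p = 0.95).

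In dermal papilla-like cells, the mesenchymal cells that direct the hair follicle, 0 of 6 genes tested passed edgeR's test, where 0.0939% of 5326 genes passed in either direction. Thbs1 stood at 39.0, 28.5 and 48.1 CPM in controls and 67.2, 71.3 and 68.8 CPM after OVA (0.83 ± 0.26, adjusted p = 0.8065), and its groups did not overlap. With DESeq2 the count was also 0. Ccn1, highest in this class, was -0.24 ± 0.13 (adjusted p = 0.951), Postn went from 499 to 623 CPM to 400.3 to 640.1 CPM (-0.02 ± 0.16, adjusted p = 0.9999), and Spp1 spread from 76.8 to 496 CPM over the 6 libraries (-0.27 ± 0.41, adjusted p = 0.991). The Spp1 effect differed from that in fibroblast-like cells by 2.55 ± 0.34 (adjusted p = 1.79e-06; 0.391% of genes differed). Tnc, Tnn, Thbs2 and Ccn4 were too low here to be tested, at no more than 35.6 CPM in any library.

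In keratinocyte-like cells, the cells of epidermis and hair follicle epithelium, Tnc rose and no other gene of the 7 tested passed, where 2.2% of 11751 genes rose. Tnc went from 13.5, 13.2 and 12.9 CPM to 25.4, 22 and 22.1 CPM (0.81 ± 0.08, adjusted p = 0.00178), with no overlap. Genes of the leukocyte and fibroblast lists moved in the same cells. The 7 leukocyte genes summed to 25.3 to 42.6 CPM in controls and 56.5 to 131 CPM after OVA, with H2-Aa, Tyrobp and Cd74 called higher. The 5 fibroblast genes summed to 124.7 to 145 CPM and 149 to 232 CPM, with Col1a1 called higher. Which cells made this RNA, and its part in the Tnc difference, were not tested. The follicle cluster led by Gnmt, Gjb2 and Slc7a8 held most Tnc and was 11.3 ± 0.546% of keratinocyte-like cells in controls and 19.1 ± 2.51% after OVA. With the same mix of clusters in each library the difference was 0.31 (adjusted p = 0.207), and within that cluster it was 0.31 ± 0.12 (adjusted p = 0.809), and the call was lost in both. It was also lost with clusters at resolution 0.6 (0.30, adjusted p = 0.5615). Ccn1 (325 to 349.9 CPM against 360.4 to 539 CPM; 0.41 ± 0.10) missed the threshold at an adjusted p of 0.0659. It passed in 5 alternatives, at 0.00887 without OVA library 2, 0.0412 with DESeq2, 0.0409 with the replicate number as a block, 0.01995 at resolution 0.6 and 0.00465 without a filter on low counts. Thbs1, most of which came from these cells, was 407 to 428 CPM in controls and 444 to 487 CPM after OVA (0.17 ± 0.05, adjusted p = 0.108), and passed at resolution 0.6 (adjusted p = 0.0276). Within the cluster led by Krt1, Mt4 and Krt10, a cluster described after its values were seen, Thbs1 rose from 202, 167 and 198 CPM to 260.1, 274 and 304 CPM (0.59 ± 0.09, adjusted p = 0.0113), 1 of 4 genes tested, where 0.455% of 8563 genes rose.

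Postn, Sparc, Ccn2 and Thbs2 did not pass in keratinocyte-like cells either, and Tnn, Spp1 and Ccn4 were too low to test. For Postn this changed with the setting: its difference of 0.31 had an adjusted p of 0.0779, which was 0.0314 with the replicate number as a block and 0.03215 without a filter on low counts. A Postn UMI was found in 25.45% of control keratinocyte-like cells (median depth 7302 UMIs) and 29.3% after OVA (7681), and in 5.61% and 6.16% after thinning; lymphoid-like cells had 1.39% (exact 95% interval 0.169 to 4.93%) and 3.08% (1.25 to 6.25%) after thinning. Compared with keratinocyte-like cells, the OVA effect in fibroblast-like cells was larger for Tnc (0.56 ± 0.11, adjusted p = 0.000288), Thbs2 (0.65 ± 0.16, adjusted p = 0.00591) and Thbs1 (0.29 ± 0.07, adjusted p = 0.00561), and lower for Ccn1 (-0.52 ± 0.07, adjusted p = 4.13e-07). These were 4 of 10 genes, where 8.6% of 12802 genes differed. The comparison used whole-class sums, and the mix of keratinocyte-like clusters differed between the groups. With the same mix in each library, the keratinocyte-like difference went from 0.81 to 0.31 for Tnc and from -0.13 to 0.30 for Thbs2. The comparison between classes was not run with that mix, so the part of the mix in it was not tested.

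**Figure D5:**
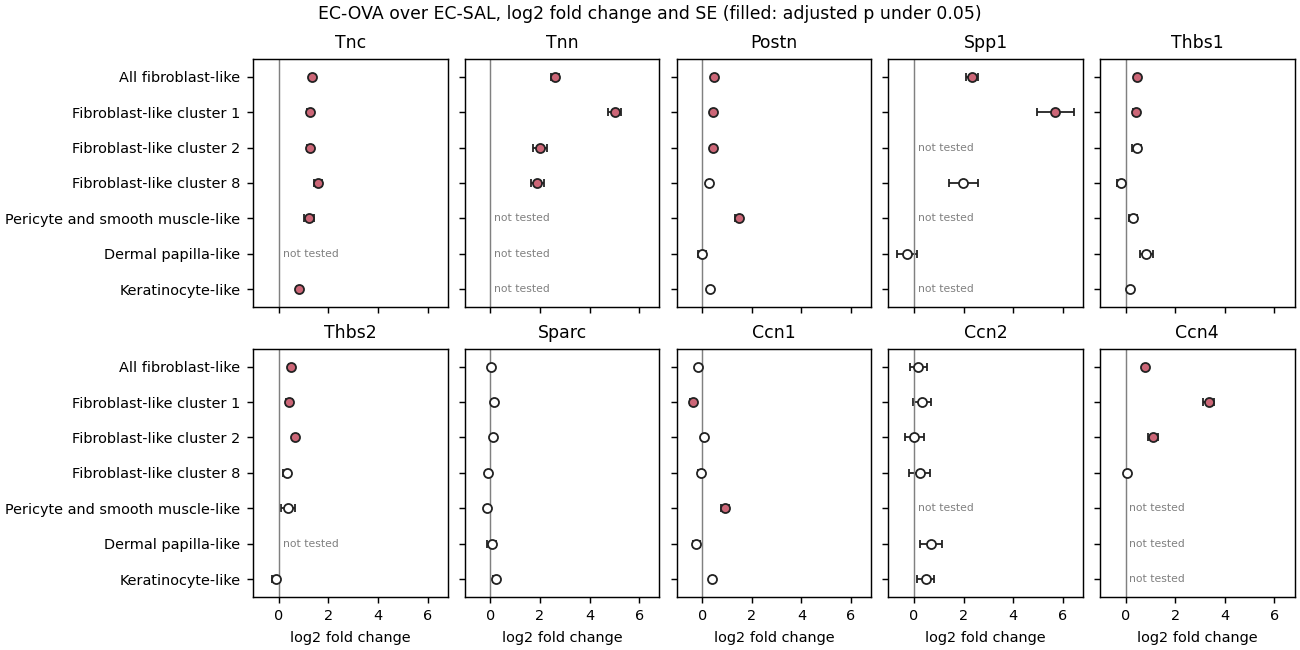
Log2 fold change, EC-OVA over EC-SAL, with its SE (x axis), of each gene in fibroblast-like cells, 3 of their clusters and the other main classes (y axis); filled points have an adjusted p under 0.05 (edgeR). Tnc was filled in each row where it was tested, and the highest values of Tnn (5.001), Spp1 (5.70) and Ccn4 (3.34) were in cluster 1.

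Outside these classes single genes rose. In macrophage and monocyte-like cells, Spp1 and Thbs1, 2 of 4 genes tested, rose, where 4.19% of 4364 genes rose. Spp1 went from 40.8, 15 and 21.6 CPM to 105, 207 and 122 CPM (2.42 ± 0.36, adjusted p = 0.000252) and Thbs1 from 78.5, 101 and 75.5 CPM to 465, 249 and 317 CPM (1.99 ± 0.23, adjusted p = 2.35e-05). Neither overlapped, and Spp1 was found in 15 of 510 and 53 of 771 cells. Neutrophil-like cells, 3 in controls and 62 after OVA and too few to test, had 1608, 2790 and 2857 CPM of Spp1 in the OVA libraries.

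In lymphatic endothelial-like cells Thbs1 (26.6 to 35.3 CPM against 75.0 to 85.5 CPM; 1.35 ± 0.21, adjusted p = 0.00195) and Sparc (222 to 267 CPM against 419 to 622 CPM; 1.10 ± 0.15, adjusted p = 0.000408) rose, 2 of 3 genes tested, where 0.533% of 6189 genes rose. In vascular endothelial-like cells Thbs1 rose, 1 of 5 genes, where 1.44% of 7872 genes rose (40.7 to 55.4 CPM against 68.1 to 91.9 CPM; 0.72 ± 0.16, adjusted p = 0.0183). That call failed on leaving out control library 2 or 3 or OVA library 3 (adjusted p = 0.1005, 0.0857 and 0.0779), and with DESeq2 (0.1399). The summed leukocyte genes, H2-Aa and Cd74 among them, moved with the groups in both classes. The 7 genes summed to 31.4 to 53.2 CPM in control lymphatic endothelial-like cells and 119 to 403 CPM after OVA, with Ptprc at 0 in all libraries. In vascular endothelial-like cells they summed to 30.03 to 45.3 CPM and 60.3 to 162 CPM. Which cells made this RNA, and its part in the Thbs1 and Sparc differences, were not tested. In the vascular cluster led by Selp, Ackr1 and Tmem252, described after its values were seen, Ccn1 and Thbs1 rose. These were 2 of 3 genes tested, where 0.946% of 5600 genes rose. Ccn1 went from 32.5, 38.3 and 38.9 CPM to 149, 99.3 and 229 CPM (2.06 ± 0.30, adjusted p = 0.00105).

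In tendon and perichondrial-like cells Tnc rose, 1 of 9 genes, where 0.292% of 8229 genes rose (22.2, 21.8 and 26.2 CPM against 53.9, 40.9 and 53.1 CPM; 1.08 ± 0.18, adjusted p = 0.00795). Without control library 2 its adjusted p was 0.0525 and without OVA library 3 it was 0.06205, and with DESeq2 it was 0.0905. In the tendon and perichondrial-like cluster led by Angptl7, Cilp2 and Cyp26a1, described after its values were seen, Spp1 also rose (170.3 to 275 CPM against 332.5 to 422 CPM; 0.75 ± 0.15, adjusted p = 0.0222), 1 of 2 members that rose among 8 tested, where 0.366% of 7381 genes rose; the other was Tnc. In dendritic and Langerhans-like cells Sparc rose (37.1 to 79.0 CPM against 75.8 to 139 CPM; 0.98 ± 0.30, adjusted p = 0.0469), where 4.64% of 4696 genes rose, and Spp1 fell (66.8, 254 and 116 CPM against 89.3, 63.8 and 46.1 CPM; -1.18 ± 0.35, adjusted p = 0.04385), where 6.73% fell. The groups overlapped for both genes. Leaving out control library 2, control library 3 or OVA library 2 ended both calls (adjusted p of 0.208, 0.163 and 0.123 for Sparc and 0.354, 0.0522 and 0.0635 for Spp1), the Sparc call also without OVA library 1 (0.0753) and the Spp1 call without OVA library 3 (0.16). Both were also lost with DESeq2 (0.1503 for Sparc and 0.0743 for Spp1) and without barcodes shared between libraries (0.0607 and 0.123), and Spp1 with stricter cell filters (0.0560). In Schwann-like, chondrocyte-like, hair matrix-like, sebocyte-like and lymphoid-like cells no gene of the set passed edgeR's test without a block. With the replicate number as a block Ccn1 and Thbs1 passed as lower in sebocyte-like cells.

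Over all kept cells 8 of the 10 genes rose, where 22.5% of 14924 genes rose, and these sums carry the change in cell mix as well. Tnn went from 1.12 to 1.57 CPM to 11.9 to 13.4 CPM (3.22 ± 0.13, adjusted p = 6.5e-06), Tnc from 37.2 to 38.9 CPM to 138 to 161 CPM (1.88 ± 0.08) and Postn from 412 to 428 CPM to 968 to 1026 CPM (1.18 ± 0.05). Sparc rose over all cells (0.69 ± 0.06, adjusted p = 9.54e-05) but was 0.01 ± 0.05 within fibroblast-like cells, where it did not pass. Thbs1 (-0.12 ± 0.04, adjusted p = 0.0516) and Ccn1 (0.13 ± 0.09, adjusted p = 0.249) did not pass over all cells. Thbs1 passed as lower with the replicate number as a block (adjusted p = 0.0435), with doublets kept (0.0395) and without barcodes shared between libraries (0.0492). Ccn1 passed as higher without OVA library 2 (0.00587). The Ccn2 call (0.92 ± 0.31, adjusted p = 0.0384) was lost without control library 1 (0.105), control library 3 (0.1145) or OVA library 3 (0.0803), with DESeq2 (0.0861) and with the block (0.0512).

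Partner genes of the same matrix moved alongside. The gene lists here and below were chosen with earlier results of these data known, so their counts only describe the lists. Of 17 collagen and crosslinking genes tested in fibroblast-like cells 11 rose and none fell, where 4.87% of all genes rose and 3.68% fell, with a median of 0.35 against 0.00 over all genes. Among them Col12a1, a fibril-associated collagen that binds tenascins, went from 118 ± 5.89 to 248.5 ± 8.86 CPM (mean ± SD; 1.08 ± 0.07, adjusted p = 2.42e-06) and Lox, which crosslinks collagen, from 194 ± 11.35 to 376 ± 21.7 CPM (0.96 ± 0.07, adjusted p = 5.81e-06). In pericyte and smooth muscle-like cells 10 of 14 rose (median 0.87), where 1.52% of all genes rose, including Bmp1, a procollagen-processing protease (1.69 ± 0.21, adjusted p = 5.33e-05). In dermal papilla-like cells 0 of 14 passed, and in keratinocyte-like cells 6 of 15 rose, where 2.2% of all genes rose. Those that rose included Col1a1, Col1a2 and Col3a1 in pericyte and smooth muscle-like cells and Col1a1 in keratinocyte-like cells. These also belong to the fibroblast genes whose sums moved in the same cells. The part of fibroblast RNA in these counts was not tested.

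Of 14 TGF-beta pathway genes tested in fibroblast-like cells 5 rose, led by Inhba, Eln, Ltbp2 and Tgfbr2 (median 0.07; 4.87% of all genes rose). Inhba, the activin A subunit, went from 49.2 ± 6.10 to 167 ± 18.3 CPM (1.77 ± 0.10, adjusted p = 1.35e-06), and within cluster 1 from 21.9 ± 6.15 to 248 ± 11.15 CPM (3.48 ± 0.14, adjusted p = 5.95e-09). Of 10 YAP and TEAD target genes outside the set 1 rose (F3, tissue factor, 0.42 ± 0.07, adjusted p = 0.00276) and 2 fell (Nt5e and Axl). Of 9 IL-4 and IL-13 response genes tested 1 rose, Il1rl1, the IL-33 receptor (1.27 ± 0.07, adjusted p = 1.35e-06). With 1 gene higher in each, the YAP and TEAD and the IL-4 and IL-13 lists are not read as standing apart from the 4.87% of all genes that rose. The 2 of 10 YAP and TEAD target genes that fell stand beside 3.68% of all genes that fell.

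Other matricellular genes were mixed: of 22 tested in fibroblast-like cells 5 rose (led by Fbln2, Spock3, Thbs4 and Ccn5) and 2 fell (Sparcl1 and Spock2), with a median of -0.02, where 4.87% of all genes rose and 3.68% fell. Of 13 receptor genes, mostly integrin subunits, 1 rose, the syndecan Sdc1 (0.39 ± 0.09, adjusted p = 0.022), a share near that over all genes. Of 20 genes that tissue dissociation is known to raise, 10 fell in fibroblast-like cells, among them Fos, Jun and Junb, and 1 rose, where 3.68% of all genes fell; their sum was 18530 to 19970 CPM in controls and 14300 to 16240 CPM after OVA, and in cluster 1, where Ccn1 fell, 17680 to 18700 and 13810 to 14570 CPM. In pericyte and smooth muscle-like cells, where Ccn1 rose, that sum was 24790 to 26910 CPM in controls and 19920 to 23350 CPM after OVA, with 5 of 19 lower, where 1.56% of all genes fell. Ccn1 is itself an immediate-early gene, and the part of dissociation in its values was not tested.

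Across the sums of 14 classes in 6 libraries (84 points that share libraries and depth), the 2 members most alike were Postn and Thbs2 (Pearson r of log2(CPM + 1) = 0.8095), then Tnc and Thbs2 (0.807), while Spp1 and Thbs1 had r = -0.11. Among 9697 other genes the nearest to Postn were Lama2 (0.9015), Tnfaip6 (0.893) and Spon1 (0.884), and to Tnn Syt13 (0.834), Osr1 (0.787) and Ccbe1 (0.78). Thbs2 was nearest to Col3a1 (0.846), Col1a1 (0.842) and Tnfaip6 (0.839), and Ccn4 to Olfml3 (0.845), Cpxm1 (0.838) and Mfap4 (0.833). Tnc was nearest to Htra1 (0.768), Bdnf (0.743) and Vegfd (0.739), Sparc to Mxra8 (0.915), Gulp1 (0.915) and Meg3 (0.909) and Spp1 to Lpar1 (0.779), Etv1 (0.761) and Apod (0.752). For Ccn1 these were Klf9 (0.887), Pfn2 (0.867) and Tnfrsf12a (0.86), for Ccn2 Ptgis (0.907), Crispld1 (0.892) and Gpc6 (0.881), and for Thbs1 Steap4 (0.742), Gstm1 (0.733) and Aldh2 (0.68).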

How the data were processed

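Counts of UMIs per gene and barcode, deposited by the authors for 6 libraries, were made with Cell Ranger (3.1.0, per the file headers) and STAR on mm10, per the submitters' processing notes; the annotation release is not given in the sources used here. Kept barcodes had at least 300 genes and at most 15% mitochondrial UMIs. Doublets were scored per library with Scrublet (scanpy 1.11.5), whose own threshold marked 0.0375 to 0.234% of cells, so the highest scores at 0.8% per 1000 barcodes were left out instead. Cells were clustered on 2000 variable genes, without the 10 genes, with 40 principal components, 20 neighbours and Leiden resolution 1.0, and classes were named from markers (at least 3). Class names stand for marker profiles.

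Counts were summed per class or cluster and library, with at least 10 cells in each library. Low genes were removed with filterByExpr. The test was edgeR's quasi-likelihood test (version 4.0.16) with TMM scaling, p-values adjusted by Benjamini-Hochberg over all genes tested and a threshold of 0.05. The same threshold held for treatment-by-class interactions. Scripts were checked on simulated data. Kept cells held 21743490 to 28049562 UMIs per library; intervals and floors (3 counts over a group) cover counting error only. DESeq2 (1.42.0), other filters, clusterings and left-out libraries were alternatives. Promoter windows are RefSeq's on GRCm38.p6, and 32158 of 32285 gene IDs matched GENCODE M21.

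The genes, gene lists and markers were chosen with earlier results of these data known. Genes outside the set are named by rule: for likeness, the 3 genes with the highest correlation with each member, among those with at least 20 CPM in a class, leaving out predicted, ribosomal and mitochondrial genes; from each list, up to 4 genes past the threshold with the smallest p, and otherwise counts only.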

Additional observations from a re-analysis of the deposited data

Results flagged for a closer look

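The OVA effect on 16 pairs of gene and cell population differed between populations by a test of the difference itself, the interaction in edgeR's quasi-likelihood model with Benjamini-Hochberg adjustment. Values are differences of log2 fold changes, and each comparison is described with its background above. Fibroblast-like minus pericyte and smooth muscle-like cells gave -1.01 for Postn and -1.10 for Ccn1, and fibroblast-like minus dermal papilla-like cells gave 2.55 for Spp1. Fibroblast-like minus keratinocyte-like cells gave 0.65 for Thbs2, -0.52 for Ccn1, 0.56 for Tnc and 0.29 for Thbs1, from whole-class sums whose mix of clusters differed between the groups. Cluster 1 minus the other fibroblast-like cells gave 2.90 for Ccn4, 3.06 for Tnn and -0.37 for Ccn1, and cluster 2 gave 0.35 for Ccn1. Cluster 8 gave -1.75 for Ccn4 and -0.72 for Thbs1. Cluster 24, the smallest with 173 cells, gave 1.47 for Postn, -0.97 for Ccn1 and -2.26 for Spp1. The Spp1 values rest on few cells, as the fibroblast-like values show, and so do the Postn and Ccn1 values of cluster 24.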

How the results depend on the processing

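Members called stayed at 7 in fibroblast-like and 3 in pericyte and smooth muscle-like cells when each library was left out in turn (7 to 7 and 3 to 3), and at 0 in dermal papilla-like cells (0 to 0), where Leiden resolution 1.5, which moved the Lrrc15 and Mmp11 cells into that class, gave 3. In keratinocyte-like cells the 1 call, Tnc, became 2 with DESeq2 (Tnc and Ccn1) and 2 at resolution 0.6, where Tnc was lost and Thbs1 and Ccn1 passed, 0 with the same mix of clusters and 3 without a filter on low counts (1 to 2 with a library left out). In other classes the 8 calls became 5 with DESeq2 (4 lost as named beside them, and Spp1 added in tendon and perichondrial-like cells) and 21 without a filter (4 to 12 with a library left out). Leaving out a library gave 7 to 9 of the 8 calls over all cells, 12 to 15 of 15 in fibroblast-like clusters and 6 to 8 of 7 differences between classes. Over all genes, the calls in fibroblast-like cells ranged from 457 (DESeq2) to 1548 (no filter) around 962, in pericyte and smooth muscle-like cells from 87 to 249 around 156, in keratinocyte-like cells from 20 (same mix) to 703 around 378, in cluster 1 from 431 to 1214 around 827 and in cluster 2 from 101 to 439 around 214. In cluster 8 they ranged from 70 to 252 around 89, in dermal papilla-like cells from 3 to 105 around 5 and in cluster 24 from 0 to 15 around 4. The cause was not tested.

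Same-numbered libraries did not deviate together in fibroblast-like cells (correlations 0.0841, 0.084 and -0.0283); in keratinocyte-like cells the correlations were 0.152, 0.112 and 0.0097, and in no class was every one over 0.1, so the numbers were not taken as pairs. With the replicate block the member counts were 7 in fibroblast-like, 3 in pericyte and smooth muscle-like, 0 in dermal papilla-like and 3 in keratinocyte-like cells (Postn and Ccn1 added), 8 over all cells (Ccn2 lost, Thbs1 added as lower), 18 in fibroblast-like clusters and 11 in other classes (added: Ccn1 and Thbs1, both lower, in sebocyte-like cells and Spp1, higher, in tendon and perichondrial-like cells). In clusters, the block added Spp1 in cluster 8 (adjusted p = 0.000339) and Postn and Ccn1 in cluster 24 (0.0304 each). Without a filter these 3 passed too, as did Thbs1 in cluster 2 (0.00614). The libraries or tool whose change ended a call are named beside it, and Spp1 in fibroblast-like cells lost its call with doublets kept.

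Signs turned only for genes that did not pass (log2 values; ranges are over leaving out each library). In fibroblast-like cells Sparc ranged from -0.0098 to 0.032 and Ccn2 from -0.32 (without OVA library 3) to 0.52. In dermal papilla-like cells Postn gave 0.0085 with stricter cells, 0.016 at resolution 0.6, 0.34 at resolution 1.5, 0.014 with members among the variable genes and 0.0079 with doublets kept, and ranged from -0.14 to 0.12. There Spp1 ranged from -0.94 to 0.43, Sparc gave -0.11 with doublets kept and ranged from -0.14 to 0.20, and Ccn2 ranged from -0.21 (without OVA library 3) to 0.99. In keratinocyte-like cells Thbs2 gave 0.097 with doublets kept and 0.30 with the same mix, and Ccn2 -0.027 with the same mix. In cluster 2 Ccn2 gave -0.0028 with library totals alone and ranged from -0.44 to 0.39. In cluster 8 the ranges were -0.34 to 0.0024 for Thbs1, -0.16 to 0.052 for Ccn1, -0.40 to 0.70 for Ccn2 and -0.019 to 0.10 for Ccn4.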
